A study of Mus musculus with 23 samples.

Results

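The genes described here were grouped as signalling below the ADP receptor P2Y13, and their coupling to it was not tested. They encode the inhibitory G protein alpha subunits (Gnai1, Gnai2, Gnai3) and the alpha subunits that couple to RhoA (Gna12, Gna13). The others encode the GTPase RhoA (Rhoa), its kinases (Rock1, Rock2) and the beta-arrestins (Arrb1, Arrb2). All 10 genes were chosen by name, as probe sets annotated with exactly 1 of these symbols. The brightest probe set by mean log2 intensity stood for each gene. By this rule 9 of the 10 genes were measured, among 19147 genes with such a probe set, and Rock2 was not analysed here. The 9 genes had 16 probe sets, 5 genes having more than 1. RNA came from the livers of 6 female knockout (KO), 6 female wild-type (WT), 6 male KO and 5 male WT mice, giving 23 arrays. The KO mice carried a knockout of P2ry13 (labelled GPR86), and no other allele or treatment is named for any group. The study asked how ablation of this receptor alters the liver transcriptome. The sources used here give neither the strain, nor the age of the mice, nor how the allele was made.

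P2Y13 is a receptor of the P2Y family that couples to inhibitory G proteins, whose alpha subunits restrain adenylyl cyclase. In cultured hepatocytes, ADP made at the cell surface when apolipoprotein A-I binds is known to act through P2Y13, RhoA and the kinase ROCK I to drive uptake of HDL particles. The proteins encoded by Gna12 and Gna13 stimulate RhoA through guanine nucleotide exchange factors, and beta-arrestins bind activated receptors, end G protein coupling and link the receptors to clathrin coats.

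The labels were checked first. P2ry13 averaged 5.15 ± 0.06 in female KO and 6.27 ± 0.17 in female WT (log2, SD, n = 6 each), and 5.19 ± 0.11 in male KO (n = 6) and 5.99 ± 0.22 in male WT (n = 5). The differences were -1.12 (SE 0.09) and -0.80 (SE 0.09, limma, adjusted p = 6.07e-09 and 2.12e-05), and KO and WT arrays of a sex did not overlap. The sources used here do not place the P2ry13 probe set inside or outside the deletion. Xist read 8.42 to 9.78 on the log2 scale in females and 4.14 to 5.22 in males, and the hepatocyte transcript Alb read 14.65 to 14.80 over all arrays. Array medians lay between 19.5 and 21.1 linear intensity units. Some genes of known sex bias also differed between female KO and female WT. Of 5 male-biased genes 2 were called lower, Hsd3b5 (-3.73) and Cyp2d9 (-0.80). Not called were Slco1a1 (mean 8.88 in female KO and 9.68 in female WT), Cyp7b1 (-0.13) and Elovl3 (0.05). Of 5 female-biased genes 2 were called higher, Sult2a1 (3.44) and Sult2a2 (5.00). Sult3a1 (mean 11.05 in female KO and 10.41 in female WT), Cyp3a44 (9.85 and 9.44) and Cyp2b9 (11.75 and 11.69) were not called. The mean log2 level of the female-biased list had a median of 10.02 over female KO arrays and 8.29 over female WT arrays. In males 0 of these 10 genes were called. As a guide to dim signal, 4 Y-linked probe sets read 2.53 to 3.69 in females.

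None of the 9 genes passed in KO against WT livers. This held in females, in males and for the average of both sexes (limma over all probe sets, adjusted p under 0.05). The same fit called 0.0547% of all probe sets in females, 0.0313% in males and 0.0808% for the average, so a count of 0 among 9 genes is near the background. At an unadjusted p under 0.05 the limma counts were 0 in females, 1 in males (Gnai1) and 0 for the average, where 5.87%, 6.14% and 6.91% of all probe sets lay. The log2 differences of KO minus WT ran between -0.09 and 0.20 in females, with a median of 0.10, and between -0.23 and 0.13 in males, with a median of -0.00. The median of all genes was 0.00 in females and -0.01 in males. Only 2 of the 9 genes, Gnai2 and Gna13, had the same sign in both sexes. The 95% intervals of all 9 genes lay within 1.5-fold either way in both sexes, and reached at most 1.33-fold higher and down to 0.726 of the WT level. These intervals are per gene and are not adjusted for the number of genes.

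**Figure D1:**
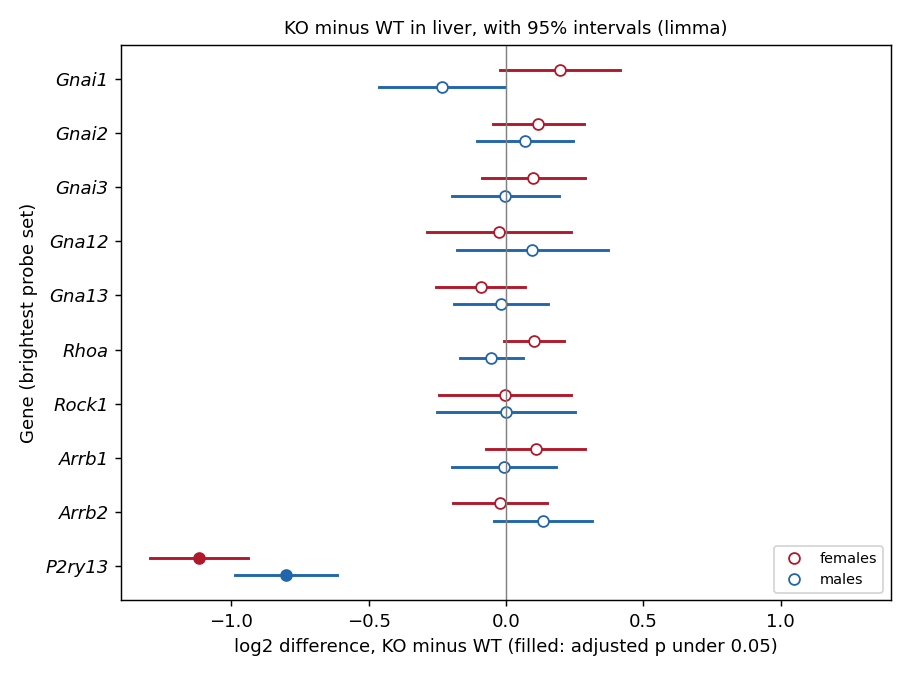
Log2 difference of KO minus WT in females (red) and in males (blue) for the 9 signalling genes and for P2ry13. Points are limma estimates, bars are 95% intervals, and filled points passed at an adjusted p under 0.05. The P2ry13 points stand apart at -1.12 and -0.80, while the 9 genes lie between -0.23 and 0.20.

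Among the inhibitory alpha subunits, Gnai2 gave small positive differences in both sexes, and neither passed. It averaged 8.03 ± 0.14 in female KO and 7.92 ± 0.13 in female WT (log2, SD, n = 6 each), and 7.96 ± 0.17 in male KO (n = 6) and 7.88 ± 0.07 in male WT (n = 5). The difference was 0.12 (SE 0.08) in females and 0.07 (SE 0.09) in males (limma, adjusted p = 0.895 and 0.942). For Gnai3, which lies on chromosome 3 as P2ry13 does in the gene table of assembly GRCm38.p6, female KO arrays read from 10.04 through a median of 10.19 to 10.35, and female WT arrays from 9.82 through 10.17 to 10.33. Male KO arrays read from 9.97 through 10.07 to 10.26, and male WT replicates 2 to 6 read 9.88, 10.23, 10.32, 10.09 and 9.98. The groups overlapped, and the differences were 0.10 (SE 0.09) in females and -0.00 (SE 0.10) in males (limma, adjusted p = 0.918 and 0.999).

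The Gnai1 differences had opposite signs in the sexes, and neither passed. Female KO arrays read from 4.57 through a median of 4.78 to 5.19, and female WT arrays from 4.38 through 4.62 to 4.91. Male KO arrays read from 4.50 through 4.68 to 4.91, and male WT replicates 2 to 6 read 4.68, 4.96, 4.95, 5.00 and 5.02. In females 2 of 6 KO arrays lay above every WT array, and in males 3 of 6 KO arrays lay below every WT array. The difference was 0.20 (SE 0.11) in females and -0.23 (SE 0.11) in males, and the difference between these effects was 0.43 (SE 0.15, limma, adjusted p = 0.863, 0.808 and 0.962). For this difference the fit called 0.0104% of all probe sets and none of the 9 genes, with 1 of the 9 at an unadjusted p under 0.05 against 5.14% of all probe sets. Xist in males, at 4.14 to 5.22, spanned all of the Gnai1 values. The other Gnai1 probe set, which was dimmer, gave -0.01 in females and -0.03 in males. Probe sets of close paralogs such as these can share signal.

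Gna12 and Gna13, the subunits that couple to RhoA, did not pass in KO against WT. Gna13 averaged 8.35 ± 0.09 in female KO and 8.45 ± 0.11 in female WT (log2, SD, n = 6 each), and 8.31 ± 0.12 in male KO (n = 6) and 8.33 ± 0.20 in male WT (n = 5). The differences were -0.09 (SE 0.08) and -0.02 (SE 0.08), and the other 2 Gna13 probe sets gave -0.13 and -0.01 in females and 0.05 and -0.15 in males. Gna12 differed by -0.03 (SE 0.13) in females and 0.10 (SE 0.13) in males (limma, adjusted p = 0.991 and 0.952). Of the 9 genes, Gna12 had the widest spread between mice of a group, with a within-group SD of 0.24.

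Rhoa had the narrowest spread of the 9 genes, with a within-group SD of 0.06 where the median of the brighter probe sets was 0.16. Female KO arrays read from 10.63 through a median of 10.72 to 10.77, and female WT arrays from 10.57 through 10.59 to 10.66. Male KO arrays read from 10.46 through 10.60 to 10.63, and male WT replicates 2 to 6 read 10.71, 10.64, 10.67, 10.63 and 10.51. In females 4 of 6 KO arrays lay above every WT array, and in males KO and WT overlapped. The difference was 0.10 (SE 0.05, 1.07-fold) in females and -0.05 (SE 0.06) in males (limma, adjusted p = 0.861 and 0.930). The plain analysis of variance named in the design text, which uses the gene's own spread, passed in females before adjustment and did not pass after it. The second Rhoa probe set read 2.71 ± 0.11 in female KO and 2.89 ± 0.22 in female WT (log2, SD, n = 6 each), in the span of the Y-linked genes in females. The mean of both Rhoa probe sets gave -0.04 in females.

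Rock1, which encodes ROCK I, had nearly equal means in all 4 groups. It averaged 8.59 ± 0.13 in female KO and 8.59 ± 0.29 in female WT (log2, SD, n = 6 each), and 8.62 ± 0.16 in male KO (n = 6) and 8.62 ± 0.27 in male WT (n = 5). The differences were -0.00 (SE 0.12) in females and 0.00 (SE 0.12) in males, and their 95% intervals ran from 0.845-fold to 1.18-fold in females and from 0.840-fold to 1.19-fold in males. The 2 other Rock1 probe sets gave 0.06 and 0.03 in females and -0.09 and -0.03 in males. Single arrays ran from 8.38 to 8.76 in female KO and from 8.25 to 8.93 in female WT, and from 8.47 to 8.91 in male KO and from 8.30 to 8.91 in male WT, so the WT ranges were the wider ones. The difference in spread was not tested.

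For the beta-arrestins, Arrb1 differed between KO and WT by 0.11 (SE 0.09) in females and -0.01 (SE 0.09) in males. Arrb2 differed by -0.02 (SE 0.08) in females and 0.13 (SE 0.09) in males, where 3 of 6 KO arrays lay above every WT array (limma, adjusted p = 0.907, 0.998, 0.990 and 0.851). Neither gene passed.

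**Figure D2:**
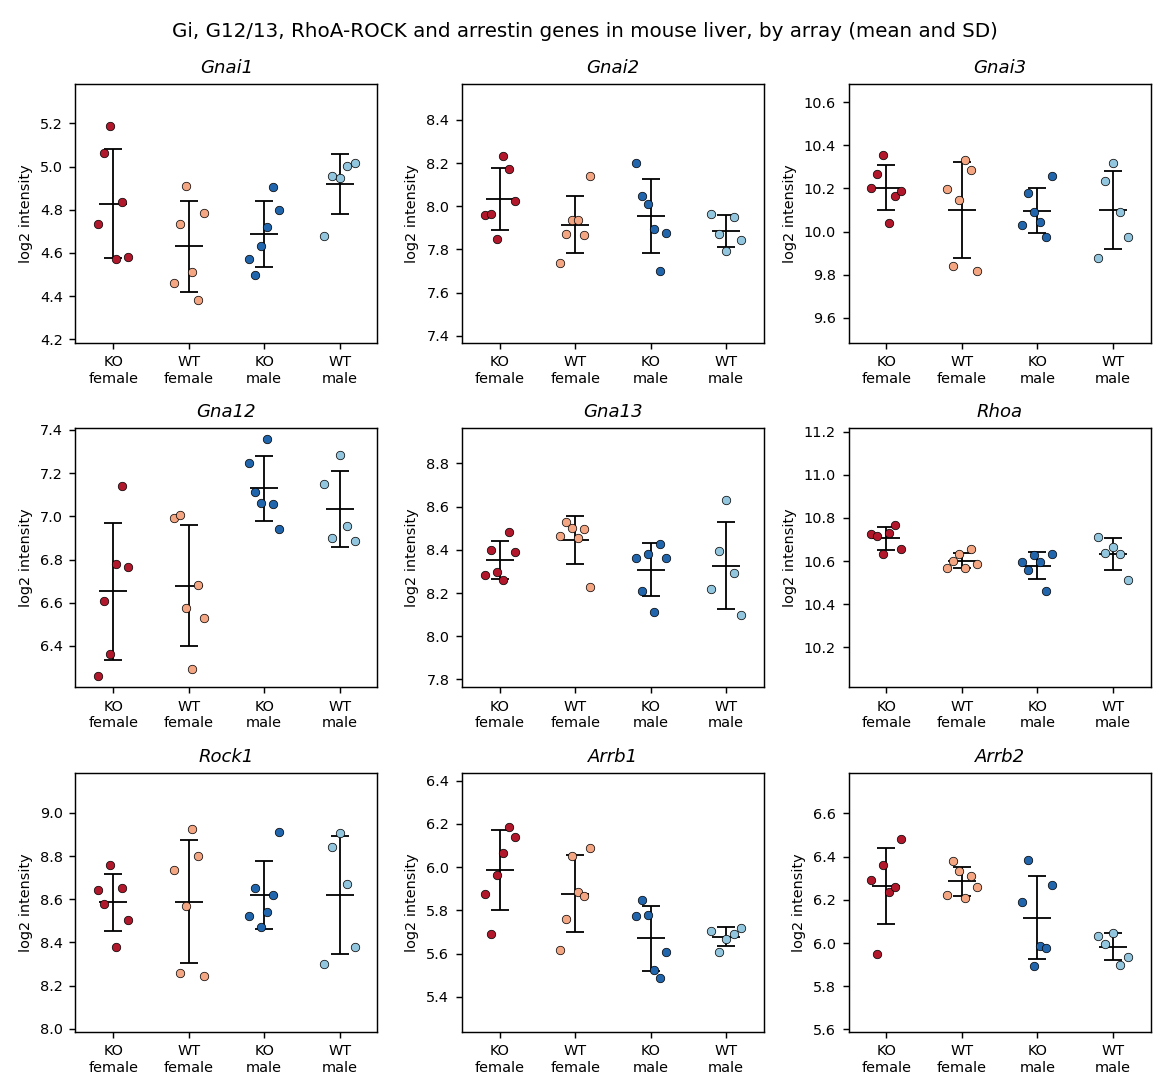
Log2 intensity of each of the 9 genes on every array, in female KO, female WT, male KO and male WT livers, with the group mean and SD. Every panel spans 1.2 log2 units. KO and WT overlap in each panel for both sexes, while female and male WT do not overlap for Arrb2.

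The larger differences among the 4 groups followed sex. In KO livers limma called 2 of the 9 genes between females and males, Gna12 lower and Arrb1 higher in females. There it called 4.85% of all probe sets (3.21% higher and 1.64% lower). By the brightest probe set per gene it called 6.74% of all genes (4.66% higher and 2.08% lower). In WT livers it called 1 of the 9, Arrb2 higher in females. There it called 4.25% of all probe sets (2.54% higher) and 5.71% of all genes (3.45% higher). At an unadjusted p under 0.05 the limma counts were 3 in KO and 4 in WT, where 16.2% and 16.5% of all probe sets lay. Averaged over both genotypes, a contrast chosen after these values were seen, 3 of the 9 genes passed, where 10.5% of all probe sets did. They were the same 3 genes, called above from the same arrays, so the average is no separate support. In a whole liver, fewer cells of a type and less RNA per cell cannot be told apart.

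Gna12 was lower in female than in male livers in both genotypes and passed in KO. Female KO arrays read from 6.26 through a median of 6.69 to 7.14, and male KO arrays from 6.94 through 7.09 to 7.36. Female WT arrays read from 6.29 through 6.63 to 7.005, and male WT replicates 2 to 6 read 7.15, 6.90, 7.28, 6.96 and 6.89. In KO 5 of 6 females lay below every male, and in WT 4 of 6 did. The difference of females minus males was -0.48 (SE 0.13, 0.718-fold) in KO and -0.36 (SE 0.13, 0.782-fold) in WT (limma, adjusted p = 0.0246 and 0.151). Averaged over the genotypes it was -0.42 (SE 0.09, limma, adjusted p = 0.00283). The sex difference in KO minus that in WT was -0.12 (SE 0.18) and did not pass (limma, adjusted p = 0.996). Leaving out female KO replicate 1 or 3, or male KO replicate 1 or 4, ended the KO call (limma, highest adjusted p = 0.0761), as did the plain analysis of variance (adjusted p = 0.124).

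The promoter of Gna12 is shown because this gene had the largest sex difference of the 9. The sequence is from RefSeq, build GRCm38.p6, chr5:140830432-140830681, minus strand, and covers the 250 bases before the annotated start of the gene. Capitals mark the GC box GGGCGG or its reverse complement CCGCCC, the letters bound by Sp1-type factors, found 4 times here, with 2 of the matches overlapping by 1 base.

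Gna12: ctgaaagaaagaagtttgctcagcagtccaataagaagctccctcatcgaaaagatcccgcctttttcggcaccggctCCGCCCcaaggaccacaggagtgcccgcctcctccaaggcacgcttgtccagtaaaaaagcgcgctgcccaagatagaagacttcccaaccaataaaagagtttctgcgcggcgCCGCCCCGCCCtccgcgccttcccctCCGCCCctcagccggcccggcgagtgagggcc

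At least 1 GC box was found in 32.7% of the same window over all promoters in the table. The STAT5 motif TTCNNNGAA, whose letters read the same on both strands, was found 0 times in this window, and in 7.02% of all promoters. Of the other measured genes with a promoter in the set, Gnai1 had 3 GC boxes, Gna13 had 2 and Gnai3 had 0. The 2 Rhoa promoters had 0 and 2, and none of these promoters held the STAT5 motif. Promoters of Gnai2, Rock1, Arrb1 and Arrb2 were not available and were not searched. These matches describe letters and do not show that a factor binds.

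Arrb1 was higher in females, and passed in KO. Female KO arrays read from 5.69 through a median of 6.01 to 6.19, and male KO arrays from 5.49 through 5.69 to 5.85. Female WT arrays read from 5.62 through 5.87 to 6.09, and male WT replicates 2 to 6 read 5.70, 5.61, 5.67, 5.69 and 5.72. In both genotypes 5 of 6 females lay above every male. The difference was 0.32 (SE 0.09, 1.24-fold) in KO and 0.20 (SE 0.09, 1.15-fold) in WT (limma, adjusted p = 0.0328 and 0.269). The other Arrb1 probe set was dimmer, with single arrays from 4.30 to 4.98, inside the span of Xist in males (4.14 to 5.22). These readings also lay above the guide to dim signal given earlier (2.53 to 3.69). This probe set differed by 0.06 in KO and -0.14 in WT and did not pass (limma, adjusted p = 0.864 and 0.583). It thus did not repeat the KO call of the brighter probe set, and the reason was not tested. With the mean of both probe sets the differences were 0.19 and 0.03, and the KO call ended (limma, adjusted p = 0.108). Array weights (0.26), a fit to only the groups compared and the plain analysis of variance also ended it (adjusted p = 0.0748, 0.0638 and 0.132 across all probe sets, limma for the first 2). Leaving out replicate 4, 5 or 6 of either KO sex did so too (limma, highest adjusted p = 0.0978).

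Arrb2 was higher in female than in male WT livers. Female WT arrays read from 6.21 through a median of 6.28 to 6.38, and male WT replicates 2 to 6 read 6.03, 6.00, 6.05, 5.90 and 5.94. All 6 female WT arrays lay above all 5 male WT arrays, a separation seen for 3.05% of all genes in that direction and for 5.27% in either. In KO the sexes overlapped, with female arrays from 5.95 through 6.28 to 6.48 and male arrays from 5.90 through 6.09 to 6.38. The difference was 0.15 (SE 0.08) in KO and 0.30 (SE 0.09, 1.23-fold) in WT (limma, adjusted p = 0.412 and 0.0440). The sex difference in KO minus that in WT was -0.16 (SE 0.12) and did not pass (limma, adjusted p = 0.988). The WT call lay at the threshold: leaving out any 1 of the 11 WT arrays, or female KO replicate 1 or 4, ended it (limma, highest adjusted p = 0.102). Quantile normalization and an intensity trend with robust variance ended it as well (limma, adjusted p = 0.0725 and 0.0503).

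Markers of Kupffer cells, the resident macrophages of the liver, differed between the sexes in the same direction as both arrestins. All 8 measured markers were higher in females in both genotypes, 7 passing in KO and 6 in WT. Their mean log2 level was 8.66 to 9.03 in female KO and 8.02 to 8.46 in male KO, and 8.53 to 8.87 in female WT and 7.98 to 8.38 in male WT. The lowest reading of any Kupffer marker was 4.18 (Marco), inside the span of Xist in males (4.14 to 5.22). Of 8 markers of sinusoidal endothelium, 8 were higher in females in both genotypes, 1 passing in KO and 2 in WT. Of 8 stellate cell and fibroblast markers, 7 were higher in females in both genotypes, 2 passing in KO (Dcn and Col3a1) and 0 in WT. Of 7 lymphocyte markers, 1 was called higher (Nkg7) and 1 lower (Cd4) in KO, and 2 were called higher (Nkg7 and Cd3g) in WT, while 0 of 5 hepatocyte markers passed in either. Among 4 erythroid and platelet markers, 1 was called lower in females in both genotypes (Alas2, -2.76 in KO and -2.72 in WT). Cholangiocyte markers gave 1 call of 5, lower in WT (Sox9), and 0 of 5 in KO. Neutrophil markers gave 0 of 6 in either genotype. Over all genes, 48.3% read higher in females in KO and 47.3% in WT. The fit called 4.66% of all genes higher and 2.08% lower in KO, and 3.45% higher and 2.27% lower in WT. The part of these cell types in the arrestin differences was not tested. Between KO and WT, 0 of the 8 Kupffer markers passed in either sex. The largest difference among them was that of Marco in females (0.996, SE 0.29, limma, adjusted p = 0.599), and Cd5l differed by 0.22 (SE 0.07) on average (limma, adjusted p = 0.521).

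**Figure D3:**
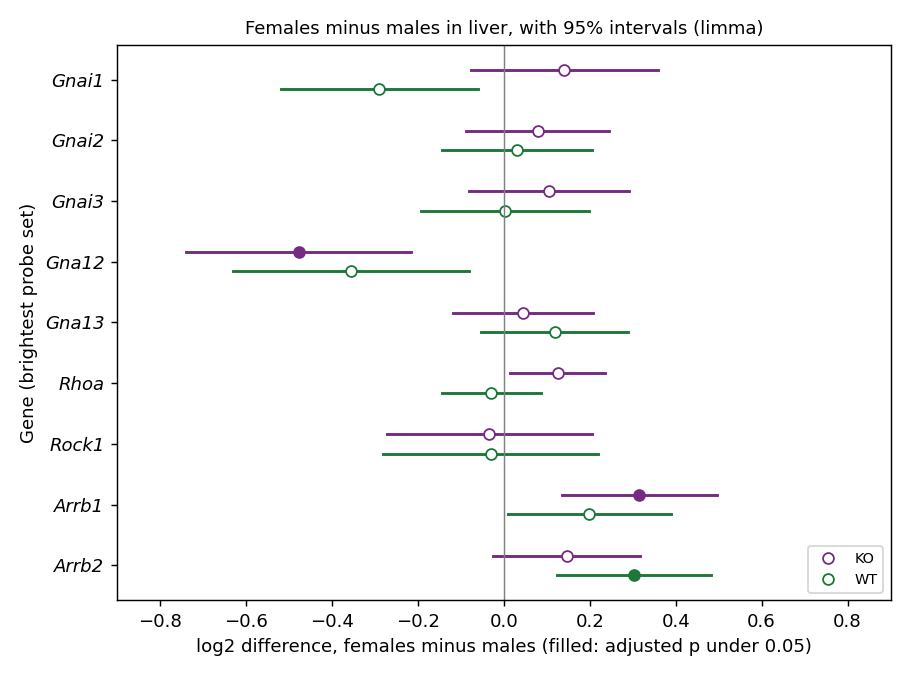
Log2 difference of females minus males in KO (purple) and in WT (green) livers for the 9 genes, as limma estimates with 95% intervals. Filled points passed at an adjusted p under 0.05. Gna12 lies below 0 in both genotypes, at -0.48 and -0.36, and Arrb1 and Arrb2 lie above 0 in both.

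The remaining 6 genes did not pass between the sexes. Rhoa differed by 0.13 (SE 0.05) in KO and -0.03 (SE 0.06) in WT (limma, adjusted p = 0.222 and 0.861). Its KO value passed on the log2(value + 16) scale alone among the alternatives with an adjusted p (limma, adjusted p = 0.0319). Gnai1 differed by 0.14 (SE 0.11) in KO and -0.29 (SE 0.11) in WT (limma, adjusted p = 0.575 and 0.162). Gnai2, Gnai3, Gna13 and Rock1 differed by -0.03 to 0.12 in either genotype. When the 4 groups were put in the order of their means for each gene, only 2 of the 27 pairs of neighbours differed with a 95% interval that left out 0, male WT above female WT for Gna12 (0.36, interval 0.08 to 0.63) and female WT above male WT for Arrb1 (0.20, interval 0.01 to 0.39). The neighbours were set by these same means, and the intervals are not adjusted. Neither of the 2 pairs passed after adjustment (limma, adjusted p = 0.151 and 0.269). For Gna12 the order was male KO, male WT, female WT and female KO. For Arrb1 it was female KO, female WT, male WT and male KO. For Arrb2 the order ran from female WT over female KO and then male KO to male WT, and no neighbours differed beyond their interval.

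The genes differed in how they varied from mouse to mouse. Across 36 pairs of the 9 genes, the Pearson r of deviations from the group means ran from -0.43 to 0.94 over the 23 arrays, with a median of 0.05. The highest was that of Rock1 with Gnai3, which was 0.94 within groups. Over all arrays their Pearson r was 0.88 and their Spearman correlation 0.84, and r was 0.82 without the 2 arrays farthest from the Rock1 median. The 2 other Rock1 probe sets gave 0.89 and 0.79 with Gnai3 within groups. Next came Gnai2 with Arrb1 at 0.72. The arrays share their hybridisation and scaling, the pairs were picked as the highest, and no p is given.

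**Figure D4:**
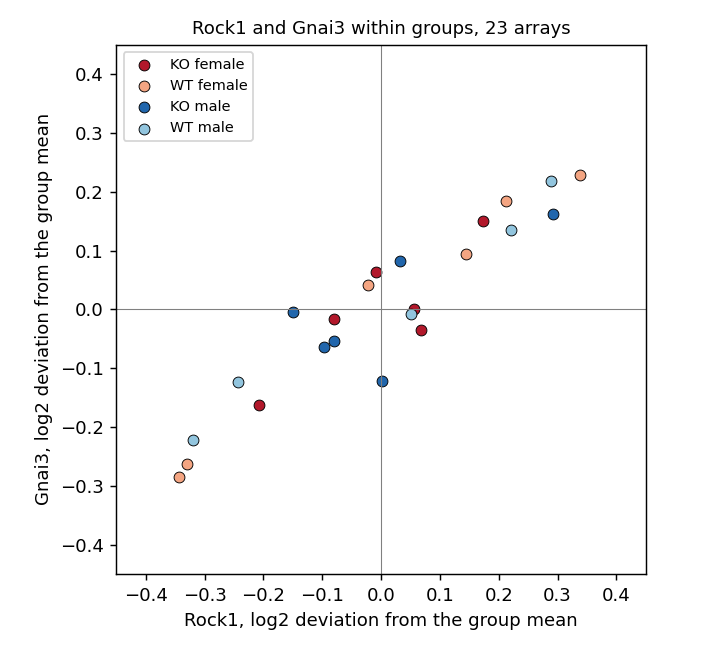
Deviation of each array from its group mean for Rock1 (horizontal axis) and Gnai3 (vertical axis), both in log2 units, with 1 point per array coloured by group. The points follow a common rising line, with r of 0.94 over 23 arrays, and WT arrays lie at both ends.

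Among 10832 other named genes above the median level, the patterns over the 23 arrays closest to Rock1 were those of Ube3a, a ubiquitin ligase (r = 0.89, Spearman 0.86), and Mbnl2, a splicing regulator (r = 0.86, Spearman 0.84). Closest to Rhoa were Atpaf1, an assembly factor of mitochondrial ATP synthase (r = 0.82, Spearman 0.89), and Smim19 (r = 0.81, Spearman 0.87). Closest to Gnai2 were Naprt, an enzyme of NAD synthesis (r = 0.78, Spearman 0.75), and Acd, a telomere protein (r = 0.75, Spearman 0.71). Closest to Arrb2 were Rin2, an exchange factor for the endosomal GTPase Rab5 (r = 0.84, Spearman 0.81), and Abr, a regulator of small GTPases (r = 0.80, Spearman 0.78). These values are the highest of the search and are given as a description.

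The other genes of the pathway were examined as 9 fixed lists with 115 genes, of which 98 were measured. None of the 98 passed in KO against WT in females, in males or on average (limma), where 0.0888%, 0.047% and 0.12% of all genes did. At an unadjusted p under 0.05 the limma counts were 4, 7 and 8 of 98, where 6.15%, 6.01% and 7.06% of all genes lay. In females 56 of the 98 values (57.1%) were above 0, with a median of 0.02, as were 50.6% of all genes. In males 54 (55.1%) were, with a median of 0.01, as were 47.1% of all genes, and for the average 62 (63.3%) were, with a median of 0.01, as were 48.2% of all genes.

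The following genes had the smallest or second smallest p of their lists. Gna14, an alpha subunit that couples to phospholipase C, read 0.30 (SE 0.14) higher in female KO and 0.37 (SE 0.15) higher in male KO, and 0.34 (SE 0.10) on average (limma, adjusted p = 0.848, 0.720 and 0.515). Ezr, which encodes ezrin, a linker of membrane and actin that ROCK phosphorylates, differed by 0.02 (SE 0.13) in females and 0.43 (SE 0.13) in males (limma, adjusted p = 0.996 and 0.597). Ppp1r12a, the myosin phosphatase subunit that ROCK inhibits, differed by 0.16 (SE 0.08) in females and -0.25 (SE 0.08) in males (limma, adjusted p = 0.854 and 0.687). The regulator of G protein signalling Rgs16 differed by 0.36 in females and the receptor kinase gene Grk5 by -0.24 in males (limma, adjusted p = 0.825 and 0.746). None of these passed.

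Between the sexes 12 of the 98 passed in KO, 10 higher and 2 lower in females, and 8 passed in WT, 6 higher and 2 lower, where 6.74% and 5.71% of all genes did (4.66% higher and 2.08% lower in KO, and 3.45% higher and 2.27% lower in WT). Of these, 5 passed in both genotypes. The matching share over all genes is not given here, so this count is only a description. Lower in females in both were Gna14 (-0.74 in KO and -0.67 in WT, limma, adjusted p = 0.000888 and 0.00541) and Grk5 (-0.42 and -0.76, limma, adjusted p = 0.00476 and 6.54e-06). Higher in females in both were Rgs2, a regulator of G protein signalling (0.50 and 0.49), Stard8, a GTPase-activating protein (0.39 and 0.42), and Rhob, a close relative of RhoA (0.34 and 0.36). Rnd2, an atypical small GTPase (0.53), Ppp1r12a (0.40) and Msn, encoding the ezrin relative moesin (0.34), passed in KO, and Ezr passed in WT (0.70, limma, adjusted p = 0.0011, 0.00211, 0.00525 and 0.00148). Markers of Kupffer cells were higher in females by a median of 0.51 in KO and 0.50 in WT, and their part in these differences was not tested.

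**Figure D5:**
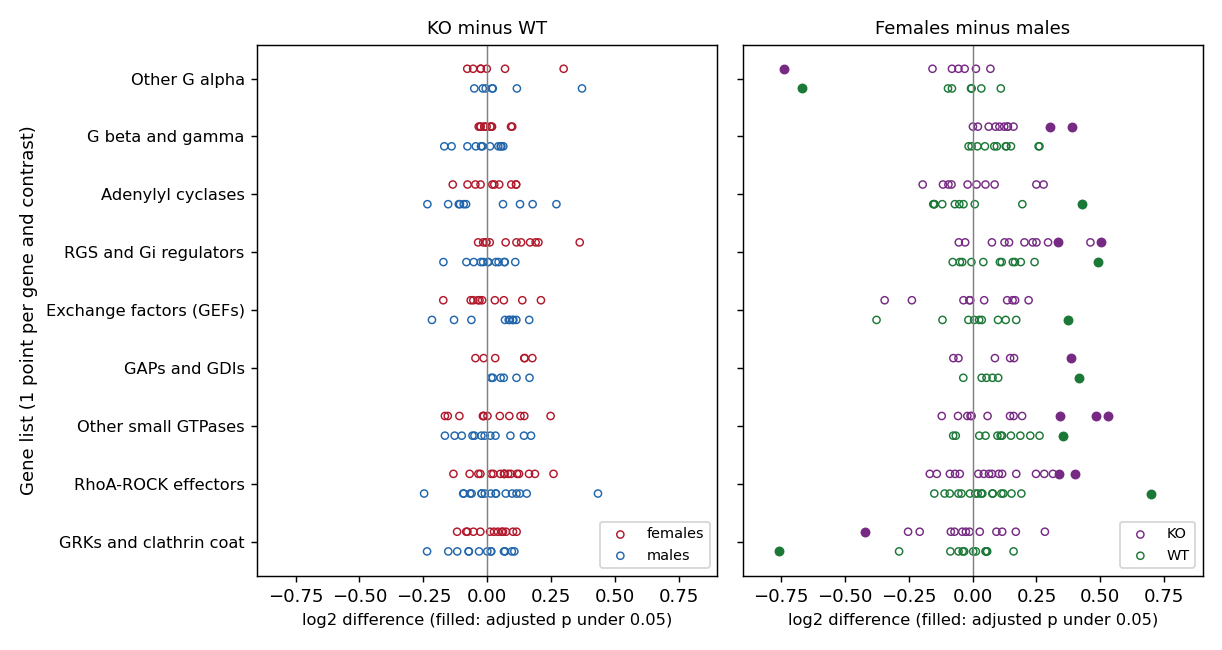
Log2 differences of the 98 other pathway genes by list, 1 point per gene and contrast. The left panel gives KO minus WT in females (red) and males (blue), with no filled point, and the right panel gives females minus males in KO (purple, 12 filled) and WT (green, 8 filled); filled points passed at an adjusted p under 0.05 (limma).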

How the data were processed

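Biotin-labelled cRNA made from liver RNA was measured on 1-colour arrays, per the labels' protocols. Each deposited value is the linear intensity of a probe set, made by the authors with RMA, per the submitters' processing notes, which give no version or settings. Of 38385 probe sets, 24478 had 1 gene symbol in the platform annotation. Values were converted to log2 without further scaling, and limma 3.58.1 in R 4.3.3 (lmFit, eBayes) fitted the 4 group means over 23 arrays. The Benjamini-Hochberg adjustment ran over the whole table, and errors are limma SEs or SDs. The number of arrays limits the precision. The members and lists were chosen with earlier results of these data known. The labels name no batch. Named genes are the 9 measured members, the pathway genes with the smallest p per list (up to 2 for KO against WT, up to 3 for the sexes), and the 2 genes most like each of 4 members. The alternatives were a dim filter, quantile and median scaling, array weights, a variance trend, the replicate block, only the compared groups, the mean of probe sets, the plain test of the design text, a pseudocount and leaving out each array; the average over genotypes was chosen after seeing the data. The fit was tested on simulated data for KO against WT in females, with 50 probe sets changed at each size. It called 28% of changes of 0.3 log2 units, 76% of 0.5 and 100% of 1, so small changes can go uncalled. The simulation gave 163 calls where the data gave 21, and the adjustment is looser when more probe sets are called. Its noise was drawn independently for each array, so these shares may be too high for the data.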

Additional observations from a re-analysis of the deposited data

Results flagged for a closer look

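Over the 9 genes and 4 groups, 36 sets of arrays were examined for an array far from the others, and 2 held one; chance gives about 1 in 20. Gna13 read 8.23 in female WT replicate 6, with the next female WT array at 8.46. Gnai1 read 4.68 in male WT replicate 2, with the next male WT array at 4.95. Without female WT replicate 6 or male WT replicate 2, neither gene passed in KO against WT. No difference of the KO effects between females and males passed for any of the 9 genes (limma).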

How the results depend on the processing

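Over all alternatives with an adjusted p, 882 values of KO against WT were computed for the 9 genes. None passed, the lowest adjusted p (limma or the plain test) was 0.563, and 62 changed sign, 1 of them that of Rhoa in females, which was -0.04 with the mean of its probe sets. Leaving out each array in turn gave 0 called genes in every KO against WT comparison, from 0 to 2 between females and males in KO, and from 0 to 1 in WT. Of the 2 genes called between the sexes in KO, 1 was called (Gna12, with Arrb1 lost) with array weights, 1 with the replicate number as a block, 1 with only the groups compared and 1 when the probe sets of a gene were averaged, and 0 with the plain analysis of variance after adjustment. The 1 gene called in WT, Arrb2, became 0 with quantile normalization, 0 with an intensity trend and 0 with the replicate block, and 3 in the average of both genotypes, chosen after seeing the data. The plain analysis without adjustment called 1 gene for KO against WT in females and 1 in males. It called 2 for the difference between the sexes in the KO effect and 4 between the sexes in WT. With its 20% change these last 2 counts were 1 and 3, where 1188 and 2707 of all 38385 probe sets passed. Over 22 same-numbered pairs, KO with WT in each sex and females with males in each genotype, the r of deviations ran from -0.16 to 0.32 and 3 were over 0.1, and 5 of 44 comparisons of an array with another group were highest at its own number, so the numbers were not taken as pairs; under the block the adjusted p (limma) was 0.0528 for Arrb1 in KO and 0.0820 for Arrb2 in WT. Over all probe sets, the adjusted plain analysis called 7 in females (limma 21), 3 in males (limma 12), 2 for the difference of effects (limma 4), 1209 between the sexes in KO (limma 1862) and 765 in WT (limma 1632), and without adjustment 2009, 2272, 2002, 6004 and 5719. Without male WT replicate 6, limma called 21 probe sets in males. The cause of these changes was not tested. Dim probe sets, as those of Gnai1 and the dimmer ones of Rhoa and Arrb1, may limit what a difference there can show, and this was not tested.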
